A study of Mus musculus with 12 samples.

Results

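The Hox genes are the homeobox genes of the HoxA, HoxB, HoxC and HoxD clusters, and here they were taken as every gene listed as protein coding whose symbol is Hox, a cluster letter from a to d and a number. This gave 40 of the 54532 genes in the deposited tables, with 11 in HoxA, 10 in HoxB, 9 in HoxC and 10 in HoxD. Hoxd4 is listed under 2 identifiers, so the 40 entries carry 39 symbols. RNA was sequenced after poly(A) enrichment from 12 mammary tumors of MMTV-Neu mice, in which the mouse mammary tumor virus promoter drives the wild-type Neu receptor in the mammary gland. All mice were put on powdered chow once a tumor was felt, and the diets began when it measured 4 mm and lasted 10 days. The diet was the control diet in 4 mice, contained MSU-42011 at 100 mg/kg diet in 4 mice, or contained bexarotene at 100 mg/kg diet in 4 mice. Both compounds are agonists of the retinoid X receptor (RXR), and the ages of the mice are not given in the sources used here. Each RNA came from a frozen section of a whole tumor, so fewer cells of a type and less RNA per cell cannot be told apart.

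Hox genes encode homeodomain transcription factors that give cells their position along the body axis. The genes of a cluster lie in the order in which they are used, from paralog group 1 at the 3′ end, expressed toward the head, to group 13 at the 5′ end, expressed toward the tail. Retinoic acid is a classical inducer of the 3′ genes, acting through heterodimers of the retinoic acid receptor (RAR) with RXR, and the Hox proteins bind DNA together with cofactors of the TALE class such as PBX and MEIS. In the mammary gland, Hoxa9, Hoxb9 and Hoxd9 act together in the growth of the gland in pregnancy, and Hoxa5 and Hoxb7 have been studied in breast cancer. The comparison of the diets asks whether Hox transcripts differed in tumors of mice given either RXR agonist.

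RefSeq promoter sequences of the GRCm38.p6 build were matched for 22 of the Hox symbols, as 24 promoters. The 250 bases before the start site are shown for Hoxb8, Hoxb4 and Hoxd8, on whose values much of the account below turns, and for Hoxa7, which had the highest median level per length. The Hoxb8 window is chr11:96281655-96281904, plus strand, the Hoxb4 window chr11:96318017-96318266, plus strand, the Hoxd8 window chr2:74704365-74704614, plus strand, and the Hoxa7 window chr6:52218574-52218823, minus strand. The RefSeq start site used for Hoxa7 lies inside the gene as the deposited tables delimit it. Each is written 5′ to 3′ in the direction of the gene, and capitals mark the nuclear receptor core motif AGGTCA, the Hox-PBX motif TGATNNAT or the TATA motif TATAAA on either strand.
Hoxb8: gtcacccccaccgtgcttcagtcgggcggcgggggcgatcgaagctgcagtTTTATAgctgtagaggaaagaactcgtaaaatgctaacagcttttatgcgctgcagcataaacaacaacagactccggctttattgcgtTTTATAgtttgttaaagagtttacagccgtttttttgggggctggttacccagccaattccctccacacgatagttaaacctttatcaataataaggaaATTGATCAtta
Hoxb4: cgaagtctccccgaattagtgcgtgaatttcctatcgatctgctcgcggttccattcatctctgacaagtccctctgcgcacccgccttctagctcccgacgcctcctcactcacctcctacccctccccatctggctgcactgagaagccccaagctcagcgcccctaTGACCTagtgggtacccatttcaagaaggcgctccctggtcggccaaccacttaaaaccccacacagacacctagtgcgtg
Hoxd8: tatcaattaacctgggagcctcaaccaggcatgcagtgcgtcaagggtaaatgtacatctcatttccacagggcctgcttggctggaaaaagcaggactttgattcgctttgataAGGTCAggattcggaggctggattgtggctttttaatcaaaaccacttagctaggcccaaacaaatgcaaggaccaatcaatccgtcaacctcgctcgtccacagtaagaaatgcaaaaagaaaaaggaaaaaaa
Hoxa7: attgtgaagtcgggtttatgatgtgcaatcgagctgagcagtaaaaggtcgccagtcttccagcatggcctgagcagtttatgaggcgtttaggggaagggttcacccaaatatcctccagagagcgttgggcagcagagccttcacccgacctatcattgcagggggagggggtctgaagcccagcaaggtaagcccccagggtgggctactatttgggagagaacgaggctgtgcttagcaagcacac

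The receptor core motif was found on either strand in 14.0% of 32851 RefSeq promoter windows of this length, and in those of Hoxb4, Hoxc4, Hoxd3, Hoxd4, Hoxd8 and Hoxd10 among the Hox genes. Direct repeats of it, the form to which RXR and its partners bind best, were searched as AGGTCANAGGTCA, AGGTCANNAGGTCA and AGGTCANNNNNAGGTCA, and lay in 0 of the 24 Hox windows, against 0.0335%, 0.00913% and 0.00913% of all windows. The core motif began 81 bases before the start of Hoxb4, on the minus strand, and 135 bases before that of Hoxd8, on the plus strand. The Hox-PBX motif lay in 7.68% of all windows and in those of Hoxa2, Hoxb1, Hoxb8 and Hoxd11, where that of Hoxb8 began 11 bases before the start. The TATA motif lay in 12.4% of all windows and in those of Hoxa10, Hoxb8, Hoxd4 and Hoxd13. The Hoxa7 window held none of the motifs. A match describes the letters in the window and not a bound site.

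Hox transcripts were scarce in these tumors. A tumor was taken to be at the detection floor for a gene when it had 3 raw counts or fewer, which corresponds to between 0.116 and 0.181 CPM, the count scaled to library size, at total counts of 16583413 to 25925027 per tumor. Of the 40 Hox entries, 15 were at the floor in every tumor, 19 were above it in some tumors and 6 were above it in all 12. Those above the floor throughout were Hoxa3, Hoxa5, Hoxa7, Hoxb4, Hoxb8 and Hoxd8. The entries at the floor throughout were Hoxa11, Hoxa13, Hoxb13, Hoxc10, Hoxc11, Hoxc12, Hoxc13, Hoxd1, Hoxd3, both Hoxd4 identifiers, Hoxd10, Hoxd11, Hoxd12 and Hoxd13, and 10 of these 15 had no read in any tumor. A count of 0 allows up to 3 counts, so these genes were not detectable at this depth, which is not the same as silent. The floor and the intervals of counts cover counting error only.

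Position in the cluster went with the level. Paralog groups 5 to 8, the middle of the clusters, held 11 entries, 63.2% of the 6093 Hox counts and none of the entries at the floor throughout. Groups 1 to 4 held 13 entries, 4 at the floor throughout, and 32.4% of the counts. Groups 9 to 13, the 5′ end, held 16 entries, 11 at the floor throughout, and 4.38% of the counts. The highest median FPKM over the 12 tumors, a level per length of transcript, was 1.67 in groups 5 to 8, 0.425 in groups 1 to 4 and 0.129 in groups 9 to 13. HoxA had 1739 counts in all, HoxB 2135, HoxC 1626 and HoxD 593. Bexarotene replicate 1 held 2236 of the 6093 Hox counts, and 1268 of those of HoxC. MSU-42011 replicate 2 held 1296 of the Hox counts, and 1030 of those of HoxB. The pooled counts by position and by cluster thus lean heavily on these tumors.

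**Figure D1:**
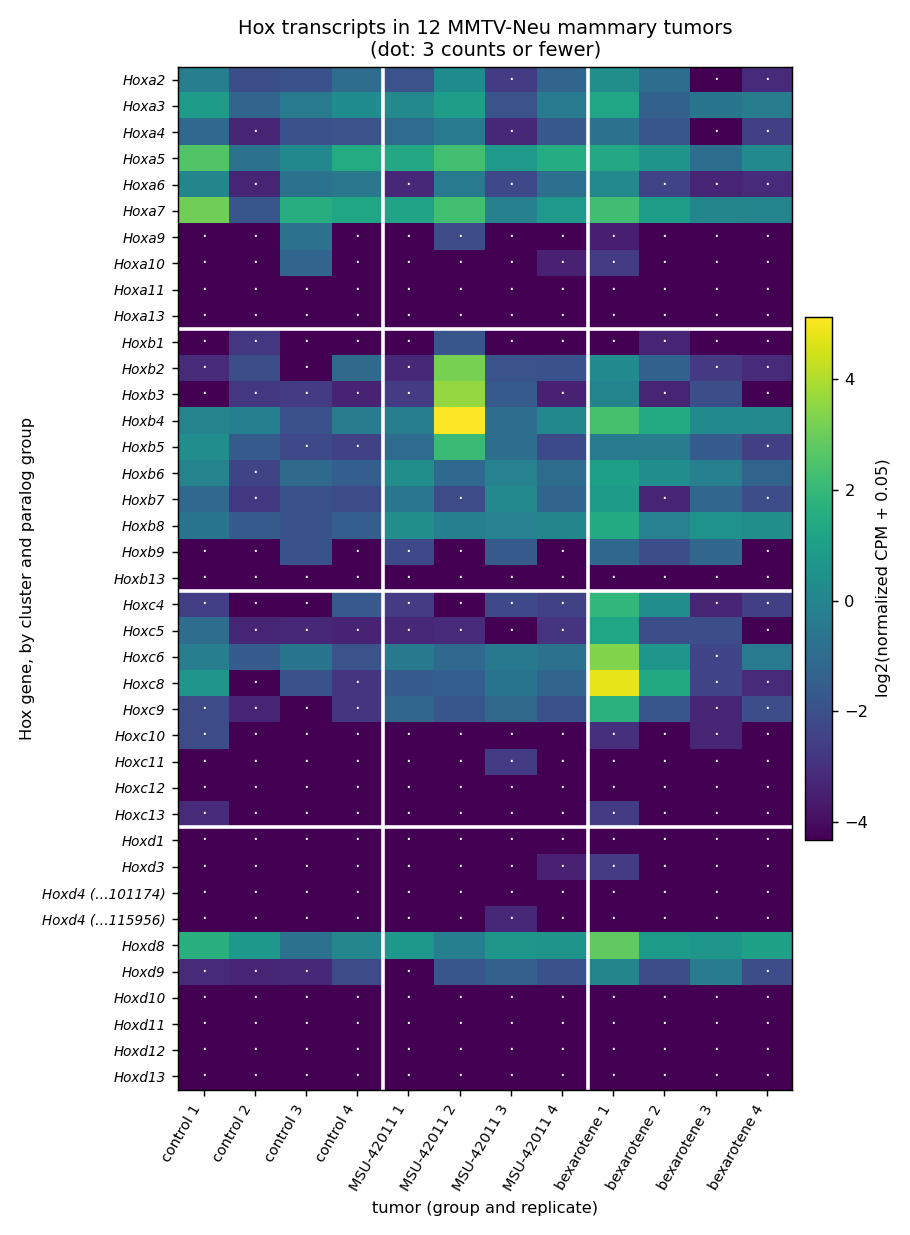
Level of 39 of the 40 Hox entries (rows, by cluster and paralog group) in each of the 12 tumors (columns), as log2 of normalized CPM plus 0.05, with a dot where the tumor had 3 counts or fewer. The 15 rows with 12 dots lie mostly at the 5′ ends of the clusters, and the brightest cells are Hoxb4 in MSU-42011 replicate 2 at 35.0 CPM and Hoxc8 in bexarotene replicate 1 at 27.1 CPM.

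Per length of transcript, Hoxa7, a gene of trunk patterning, had the highest median of the Hox genes with 1.67 FPKM (range 0.186 to 6.74 over the 12 tumors). Hoxa5, which acts in lung and mammary development, followed with 1.17 FPKM (range 0.265 to 3.07), then Hoxd8 with 0.958 FPKM (range 0.327 to 4.52), Hoxc6 with 0.610 FPKM (range 0.148 to 10.6) and Hoxb8 with 0.597 FPKM (range 0.146 to 1.90). Each range was wider than the distance between neighbours in this order. The FPKM of Hoxa7 corresponded to a length of 1217 bases, against 2876 listed for the gene, while Hoxa5 had 1877 for both. Those of Hoxd8, Hoxc6 and Hoxb8 also corresponded to shorter lengths than listed. By median normalized CPM, Hoxa5 (2.11) lay just above Hoxa7 (2.06), so the first rank depends on the length used. The median over all 15504 genes that passed the filter on low counts was 10.5 FPKM, and even Hoxa7 exceeded only 22.3% of them. The filter passed 11 of the 40 Hox entries, Hoxa3, Hoxa5, Hoxa6, Hoxa7, Hoxb4, Hoxb5, Hoxb6, Hoxb8, Hoxc6, Hoxc8 and Hoxd8, and only these entered the edgeR tests.

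In 2 tumors many Hox genes stood above the others. Bexarotene replicate 1 was the highest tumor for 14 of the 25 Hox genes that were above the floor anywhere, against 19.1% of all tested genes. This tumor also differed from the others in its cell type markers, since 12 fibroblast genes summed to 12120 CPM there, 999 CPM in bexarotene replicate 2 and 112 to 542 CPM in the other 10 tumors. Its sum was highest too for 9 adipocyte genes (172 CPM against at most 55.5), 8 endothelial genes (453 CPM against at most 215), 12 genes of blood and immune cells (384 CPM against at most 154), 9 myoepithelial and smooth muscle genes (271 CPM against at most 118) and 8 skeletal muscle genes (282 CPM against at most 155), and lowest for 8 luminal genes (2930 CPM against 4337 to 5955). The muscle sum was high in control replicate 1 as well, at 155 CPM, and lay between 1.64 and 4.78 CPM in the remaining tumors. Control replicate 1 also had the highest summed HoxA level, at 18.6 CPM, and the part of muscle in the Hox values was not tested. No gene of the fibroblast, adipocyte, endothelial, blood or luminal lists was at 0 in every tumor. The luminal sum was high throughout, as the label of a mammary tumor has it. Among the luminal genes Krt19 was scarce, with means of 0.894 CPM in control and 0.170 CPM in MSU-42011 tumors. Its mean was 7.63 CPM (SD 13.7) in bexarotene tumors. Of 8 skin and hair genes, 3 were at the floor throughout, and their sum lay between 6.25 and 9.69 CPM. On the first principal component, with 33.6% of the variance, bexarotene replicate 1 lay at -115 and the other tumors between -16.2 and 34.2. MSU-42011 replicate 2 did not stand apart in this way, with a median correlation of 0.965 to the other tumors (0.915 for bexarotene replicate 1), yet was highest for Hoxa4, Hoxb1, Hoxb2, Hoxb3, Hoxb4 and Hoxb5.

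No Hox gene passed an adjusted p of 0.05 in edgeR's quasi-likelihood test, neither for any difference among the 3 groups nor in a comparison of 2 groups (0 of 11 in each, smallest adjusted p = 0.762). The same held for all 15504 genes tested, of which 0% were called in each of these 4 tests. DESeq2 called 0 Hox genes as well, with a smallest adjusted p of 0.0527, among the 14 to 26 of the 40 entries to which it gave an adjusted p. Over all genes it called 5 (0.0296% of those with an adjusted p) for any difference, 25 (0.153%) between the agonists, and, relative to control, 1 (0.00338%) with MSU-42011 and 6 (0.0356%) with bexarotene. Limma on log2 FPKM called 0 Hox genes. At an unadjusted edgeR p under 0.05 for any difference among the groups, 4 of the 11 Hox genes passed, Hoxb4, Hoxb8, Hoxc6 and Hoxc8, against 4.24% of all genes. Over other sets of entries, DESeq2 had 6 of 26 (against 3.53% of all genes with a p), and limma on log2(FPKM + 1) had 1 of 20 (against 2.56%), which was Hoxb8. The Hox genes are few and neighbours in a cluster share reads of 1 library, so these shares are descriptions. The filter on low counts asks for enough reads in 4 tumors of any group. A gene near the floor can thus be among the 11 because it was high in treated tumors. Hoxb8, with 4 to 10 counts in control and 13 to 73 in agonist tumors, is such a gene. The shares for the comparisons of 2 groups carry the same limit.

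In the MSU-42011 group against control, Hoxb4 and Hoxb8 had an unadjusted edgeR p under 0.05 and were higher (2 of 11, against 1.14% of all genes), and 0 of 11 were lower (0.851% of all genes). Among these 11, only Hoxb8 had all 4 MSU-42011 tumors above all 4 control tumors (1 of 11, against 1.16% of all genes), and 0 of 11 had them below (0.806%). In the bexarotene group against control, Hoxb8, Hoxc6 and Hoxc8 had an unadjusted p under 0.05 and were higher (3 of 11, against 4.48%), and 0 of 11 were lower (1.96%). Hoxb4 and Hoxb8 had all 4 bexarotene tumors above all 4 control tumors (2 of 11, against 1.14%), and 0 of 11 had them below (0.89%). Between the agonists, Hoxc6 and Hoxc8 were lower in MSU-42011 than in bexarotene tumors at an unadjusted p under 0.05 (2 of 11, against 3.13%), 0 of 11 were higher (0.819%), and 0 of 11 did not overlap in either direction (0.632% of all genes higher and 0.535% lower).

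The median log2 fold change of the 11 Hox genes was 0.22 for MSU-42011 against control, with 6 positive and 5 negative, and 1.00 for bexarotene against control, with 8 positive and 3 negative. Over all genes tested these medians were 0.0016 and 0.030. Both comparisons share the control tumors. Without bexarotene replicate 1 the median for bexarotene was 0.18, with 6 positive and 5 negative. Without MSU-42011 replicate 2 the median for MSU-42011 was -0.04, with 4 positive and 7 negative, and without control replicate 1 the medians were 1.02 and 1.57. For MSU-42011 against bexarotene the median was -0.07 (all genes -0.024), and it was 0.81 without bexarotene replicate 1 and -0.60 without MSU-42011 replicate 2.

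**Figure D2:**
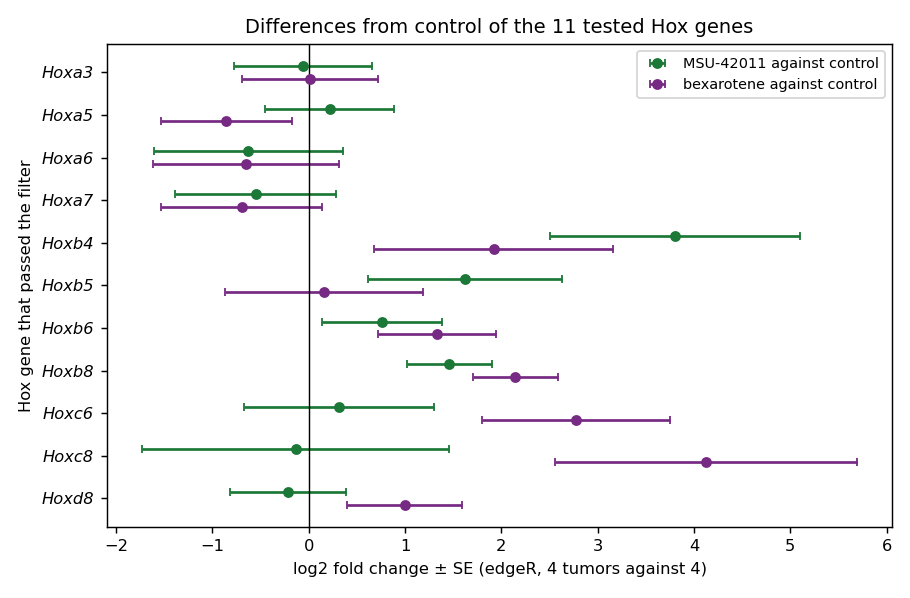
Log2 fold change against control (x axis, with SE) of the 11 Hox genes that passed the filter (y axis), for MSU-42011 and bexarotene, each 4 tumors against 4. Hoxb8 lies above 0 by more than 3 SE in both comparisons, at 1.46 and 2.14, and the HoxA genes lie within 1.5 SE of 0 in both.

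Hoxb8 was the Hox gene that differed most evenly between the control and agonist tumors. It lies on chromosome 11 from 96281905 to 96285315 (plus strand, GRCm38, ENSMUSG00000056648), shares no exon bases with another listed gene, and encodes a homeodomain protein known for keeping myeloid progenitors immature. Its raw counts were 10, 6, 4 and 7 in the control tumors, 22, 13, 16 and 23 in the MSU-42011 tumors and 73, 18, 28 and 20 in the bexarotene tumors, in the order of the replicates. As normalized CPM these were 0.59, 0.28, 0.21 and 0.30, then 1.21, 0.79, 0.87 and 0.96, then 2.69, 0.86, 1.36 and 1.23. All 8 agonist tumors were above all 4 control tumors, and the agonist groups overlapped each other. Of all genes, 1.16% had all MSU-42011 tumors above control and 1.14% all bexarotene tumors. The share with both was not counted, and both comparisons use the same control tumors. The means were 0.348 ± 0.168 CPM in control, 0.957 ± 0.183 CPM in MSU-42011 and 1.53 ± 0.802 CPM in bexarotene tumors (SD, n = 4 each).

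The log2 fold change of Hoxb8 against control was 1.46 (SE 0.44) for MSU-42011 and 2.14 (SE 0.44) for bexarotene. Both had the smallest p that an exact two-sided permutation test of 4 against 4 tumors allows, 0.0286, and unadjusted edgeR p-values of 0.00635 and 0.000374, which rank 20 and 2 among the 15504 genes. These p-values and ranks carry the limit given above, since Hoxb8 passed the filter on low counts through its agonist tumors. On log2(FPKM + 1), where the added 1 exceeds most of its values, limma gave smaller differences of 0.43 and 0.70. Neither passed after adjustment (edgeR adjusted p = 0.9999 and 0.762, DESeq2 adjusted p = 1.0 and 0.0527). Between MSU-42011 and bexarotene the log2 difference was -0.68, and 2 SE to either side of it spanned -1.50 to 0.14. Without bexarotene replicate 1 the change for bexarotene was 1.72, and without MSU-42011 replicate 2 and bexarotene replicate 1 the changes were 1.54 and 1.72.

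The neighbours of Hoxb8 did not separate the groups in the same way. Hoxb6, which patterns the trunk and lies 3′ of Hoxb7, had normalized CPM of 0.89, 0.14, 0.43 and 0.30 in control, 1.21, 0.42, 0.87 and 0.46 in MSU-42011 and 1.96, 1.19, 0.82 and 0.37 in bexarotene tumors. Control replicate 1 was as high as several agonist tumors, and the groups overlapped. Its log2 fold change was 0.76 (SE 0.62) for MSU-42011 and 1.33 (SE 0.61, exact permutation p = 0.143) for bexarotene. Hoxb7 had 1 to 48 counts and did not pass the edgeR filter, with its highest value in bexarotene replicate 1. Hoxb9, one of the mammary gland genes of group 9, had 0 to 11 counts and was above the floor in 5 tumors, and Hoxb13, a gene of the prostate and tail, had none.

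**Figure D3:**
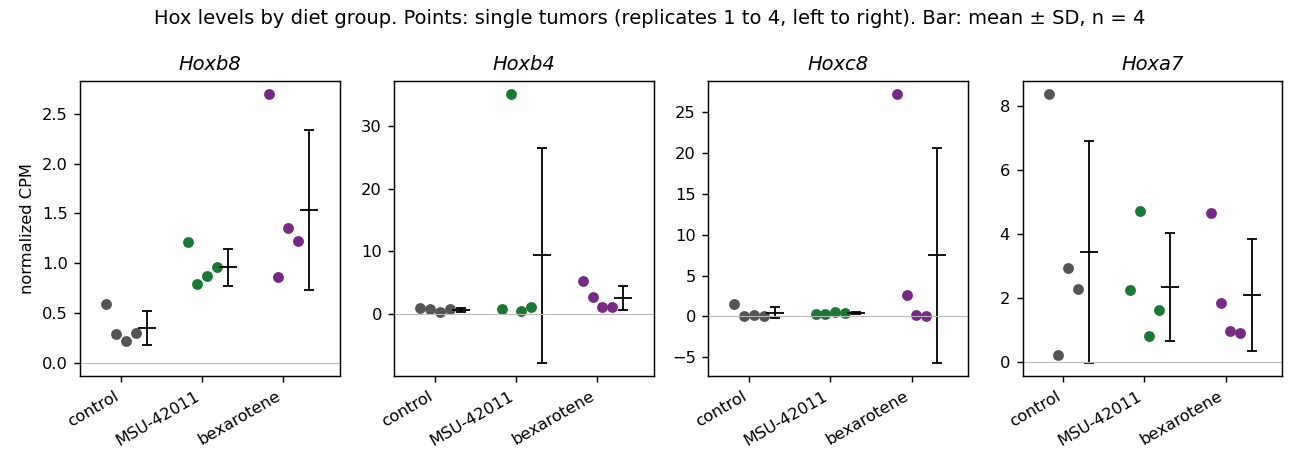
Normalized CPM of Hoxb8, Hoxb4, Hoxc8 and Hoxa7 (y axes, separate scales) in each tumor by diet group, with the mean and SD of 4 tumors. Hoxb8 shows all 8 agonist tumors above the control tumors, whereas the means of Hoxb4 in MSU-42011 and of Hoxc8 in bexarotene tumors rest on a single tumor at 35.0 and 27.1 CPM.

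Hoxb4, known for expanding blood stem cells, had its high value in a single MSU-42011 tumor. It lies on chromosome 11 from 96318267 to 96321638 (plus strand, ENSMUSG00000038692) with no shared exon bases. Its raw counts were 15, 17, 4 and 17 in control, 14, 578, 9 and 24 in MSU-42011 and 141, 56, 22 and 17 in bexarotene tumors. As normalized CPM they were 0.89, 0.80, 0.21 and 0.73, then 0.77, 35.0, 0.49 and 1.01, then 5.20, 2.67, 1.07 and 1.04. MSU-42011 replicate 2 held 578 of the 914 reads, 6.73 times the level of the next tumor, and the other MSU-42011 tumors overlapped the control tumors. The 4 bexarotene tumors were all above the 4 control tumors.

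For MSU-42011 the log2 fold change of Hoxb4 was 3.80 (SE 1.30, edgeR unadjusted p = 0.0125, exact permutation p = 0.371), and it was 0.20 without MSU-42011 replicate 2. For bexarotene it was 1.92 (SE 1.24, edgeR adjusted p = 0.876, exact permutation p = 0.0286), and 1.27 without bexarotene replicate 1. DESeq2 gave no p for Hoxb4 under its filter on Cook's distance. Between the agonists the difference was 1.88, 2 SE to either side spanned -0.47 to 4.23, and without MSU-42011 replicate 2 it was -1.72.

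The high level in MSU-42011 replicate 2 covered a stretch of HoxB and ended within the cluster. Hoxb5, a gene of lung and neural crest development, had 71 counts there and 2 to 20 elsewhere. Hoxb3, which patterns the hindbrain and pharyngeal arches, had 205 counts there, 25 in bexarotene replicate 1 and 0 to 5 in the other tumors. Hoxb2, a hindbrain gene, had 149 counts there, 31 in bexarotene replicate 1 and 0 to 10 elsewhere, and Hoxb1, the classical retinoic acid target of the hindbrain, had 4 counts there and 0 to 2 elsewhere. The high stretch thus ran from Hoxb5 to Hoxb2, with Hoxb1 just above the floor, while Hoxb6, Hoxb7, Hoxb8 and Hoxb9 on its 5′ side were not among the high genes of that tumor, with 7, 3, 13 and 0 counts.

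Transcripts of the opposite strand were high over the same stretch. The antisense gene Gm11536, from 96336299 to 96342108, had 89 of its 102 reads in MSU-42011 replicate 2, and the antisense gene Hoxb3os, from 96343072 to 96354691, had 33 of its 68. Since Hoxb3 shares 52.9% and Hoxb2 27.3% of its exon bases with Hoxb3os on the other strand and the strand setting of the counting is not given, part of the reads of these genes cannot be told apart. Mir10a, between Hoxb5 and Hoxb4, had 6 of its 12 reads in the same tumor.

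Outside the stretch the region did not share the pattern. Against the median of the other 11 tumors, MSU-42011 replicate 2 had a log2 ratio of 4.68 for Hoxb4, 4.44 for Hoxb3, 3.79 for Hoxb2, 2.6 for Hoxb5 and -0.09 for Hoxb8. The 19 other genes measured within 500 kb of the cluster had a median log2 ratio of -0.019, with Gm11536 (3.56) and Hoxb3os (2.04) the highest of them and the next, Atp5g1, at 0.44. The first protein-coding genes beyond the cluster ends, Ttll6 and Skap1, had 0 reads in any tumor and 0 to 17 counts. Over all tested genes MSU-42011 replicate 2 was at least 5 times above every other tumor for only 3, namely Hoxb4, Il12a and 4930469K13Rik, of which the last 2 were singled out after their values were seen. Its fibroblast sum of 192 CPM ranked 9 among the 12 tumors, its luminal sum ranked 10 and its endothelial sum ranked 11. In HoxA, MSU-42011 replicate 2 was raised too but by less, with log2 ratios of 0.71 to 1.26 from Hoxa2 to Hoxa7. Its summed HoxA level of 14.1 CPM was below that of control replicate 1 only.

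**Figure D4:**
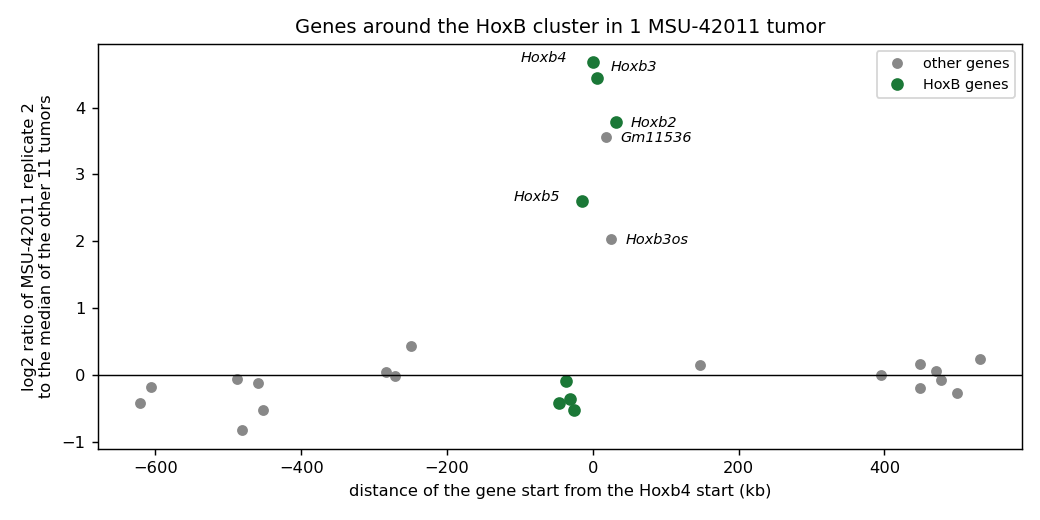
Log2 ratio of MSU-42011 replicate 2 to the median of the other 11 tumors (y axis) for genes at the given distance from the start of Hoxb4 (x axis, in kb, negative toward Hoxb13). Hoxb5, Hoxb4, Hoxb3, Hoxb2 and the antisense genes Gm11536 and Hoxb3os lie above 2, and all other genes plotted lie at or below 0.44.

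Hoxc8 and Hoxc6, which pattern the thoracic region, were the HoxC genes with most reads, and both owed their bexarotene mean to a single tumor. Hoxc8 lies on chromosome 15 from 102990607 to 102994111 (plus strand, ENSMUSG00000001657). Its raw counts were 25, 0, 4 and 2 in control, 5, 5, 11 and 9 in MSU-42011 and 735, 55, 3 and 1 in bexarotene tumors. Bexarotene replicate 1 held 86.0% of the 855 reads, and bexarotene replicates 3 and 4 were at the floor, within the range of the control tumors. The log2 fold change for bexarotene against control was 4.12 (SE 1.57, edgeR unadjusted p = 0.0218, exact permutation p = 0.286), and 1.15 without that tumor. For MSU-42011 against control it was -0.13 (SE 1.59), and for MSU-42011 against bexarotene -4.25 (edgeR adjusted p = 0.997), or -1.29 without bexarotene replicate 1.

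Hoxc6 lies on chromosome 15 from 102998257 to 103011881 (plus strand, ENSMUSG00000001661). Its raw counts were 13, 6, 11 and 5 in control, 12, 7, 12 and 13 in MSU-42011 and 276, 32, 3 and 11 in bexarotene tumors. Bexarotene replicate 1 was 6.67 times above the next tumor, bexarotene replicate 2, and the other groups overlapped with bexarotene replicates 3 and 4. The log2 fold change for bexarotene was 2.77 (SE 0.97, edgeR unadjusted p = 0.0145, exact permutation p = 0.343), and 0.77 without bexarotene replicate 1.

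The rest of HoxC had the same tumor on top. Hoxc9, which did not pass the filter, had 3, 1, 0 and 2 counts in control, 7, 4, 8 and 5 in MSU-42011 and 87, 5, 1 and 3 in bexarotene tumors, so that its MSU-42011 tumors were just above the floor and above the control tumors. Hoxc5 had 62 counts in bexarotene replicate 1 and 0 to 8 elsewhere, and Hoxc4 had 103, then 25 in bexarotene replicate 2 and 0 to 6 elsewhere. The summed HoxC level was 46.8 CPM in bexarotene replicate 1, 5.77 CPM in bexarotene replicate 2 and 0.379 to 3.26 CPM in the other 10 tumors. These are also the 2 tumors with the highest fibroblast sums, 12120 and 999 CPM, and the part of fibroblast content in the HoxC values was not tested. Among the 5′ genes, Hoxc10, Hoxc11 and Hoxc13 had at most 3 counts in any tumor and Hoxc12 had none, although Hoxc13 is known for its role in hair.

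**Figure D5:**
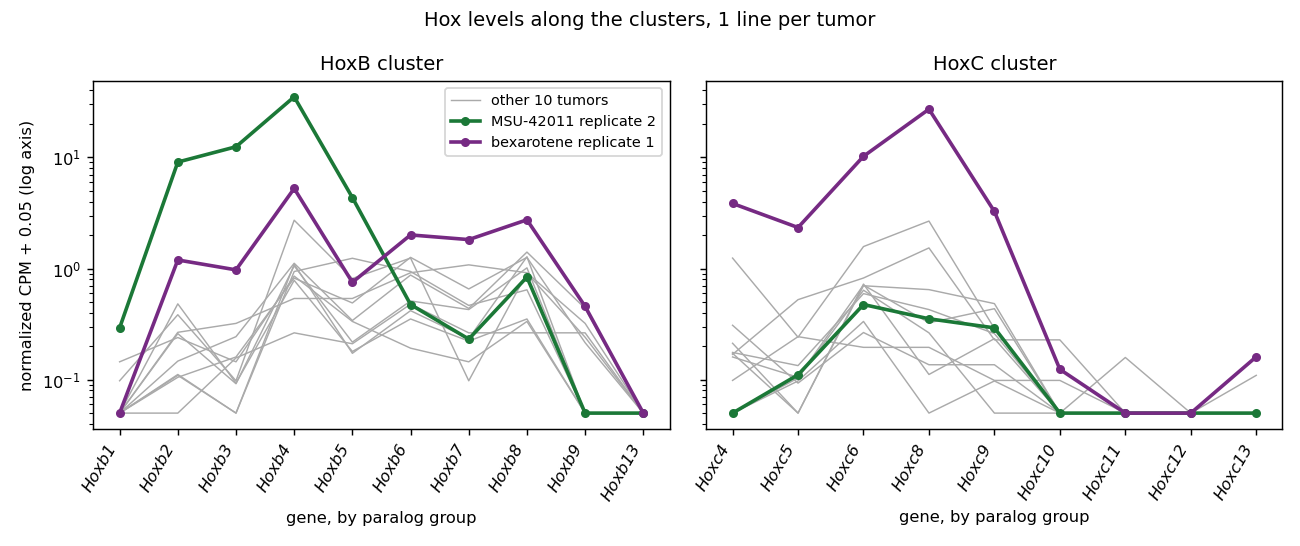
Normalized CPM plus 0.05 (y axis, log scale) of the HoxB and HoxC genes in order of paralog group (x axis), with 1 line for each tumor. In HoxB the line of MSU-42011 replicate 2 lies above all others from Hoxb1 to Hoxb5 and among them from Hoxb6 onward, and in HoxC the line of bexarotene replicate 1 is highest from Hoxc4 to Hoxc9.

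Hoxd8, from 74704615 to 74707933 on chromosome 2 (plus strand, ENSMUSG00000027102), was the only HoxD gene above the floor in every tumor. Its raw counts were 53, 34, 10 and 23 in control, 29, 13, 29 and 34 in MSU-42011 and 193, 36, 31 and 34 in bexarotene tumors. Apart from bexarotene replicate 1 the groups overlapped. The log2 fold change was -0.21 (SE 0.60) for MSU-42011, which turned positive in several alternative fits, and 1.00 (SE 0.60, edgeR adjusted p = 0.858) for bexarotene, which was 0.18 without bexarotene replicate 1. Hoxd9, the HoxD member of the mammary group 9, had 1, 1, 1 and 4 counts in control, 0, 4, 6 and 5 in MSU-42011 and 26, 4, 14 and 3 in bexarotene tumors, and did not pass the filter. Hoxd1, Hoxd10, Hoxd11, Hoxd12 and Hoxd13 had 0 counts in every tumor, Hoxd3 had at most 3, and the Hoxd4 identifiers had at most 1. Hoxd3 shares 62.4% of its exon bases with genes on the same strand, so its count is uncertain.

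The HoxA genes varied widely within the control group. Hoxa7, from 52214491 to 52221854 on chromosome 6 (minus strand, ENSMUSG00000038236), had raw counts of 141, 5, 55 and 53 in control, 41, 78, 15 and 39 in MSU-42011 and 126, 39, 20 and 15 in bexarotene tumors. As normalized CPM these ran from 0.24 to 8.37 in the control tumors alone, a range that covered all 8 agonist tumors. The log2 fold change was -0.55 (SE 0.84) for MSU-42011 and -0.70 (SE 0.84) for bexarotene, and without control replicate 1 both turned positive, to 0.37 and 0.22. The gene shares 20.4% of its exon bases with the antisense gene Hoxaas3.

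Hoxa5, from 52201754 to 52204587 on chromosome 6 (minus strand, ENSMUSG00000038253), had raw counts of 99, 11, 19 and 65 in control, 47, 78, 31 and 68 in MSU-42011 and 69, 30, 10 and 18 in bexarotene tumors. The groups overlapped, with the highest and nearly the lowest tumor in the control group. Between the agonists the log2 difference was 1.07 (SE 0.68, exact permutation p = 0.0571, edgeR adjusted p = 0.997), and 2 SE to either side spanned -0.29 to 2.44. Against control it was 0.22 (SE 0.67) for MSU-42011, turning negative in several alternative fits, and -0.86 (SE 0.68) for bexarotene, which was -0.06 without control replicate 1 and -1.33 without bexarotene replicate 1.

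Hoxa3, a gene of thymus and parathyroid development, had 4 to 63 counts, and its log2 fold changes were -0.06 (SE 0.72) and 0.01 (SE 0.70). Hoxa6 had 1 to 28 counts, with log2 fold changes of -0.63 (SE 0.98) and -0.65 (SE 0.97). Without bexarotene replicate 1 those for bexarotene were -0.86 for Hoxa3 and -2.57 for Hoxa6 (edgeR unadjusted p = 0.0252, adjusted p = 0.978). Hoxa2 had 0 to 33 counts and Hoxa4 0 to 15. Hoxa9 and Hoxa10 were above the floor only in control replicate 3, with 10 and 7 counts, where neither Hoxa11 nor Hoxa13 had a read.

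Between the first and last gene of the clusters the tables list 46 other genes, of which 29 had no read in any tumor, 35 were at the floor throughout and 11 were above it somewhere. Hotairm1, a noncoding RNA of HoxA that retinoic acid induces in myeloid cells, had 34, 2, 2 and 15 counts in control, 8, 4, 5 and 14 in MSU-42011 and 42, 3, 1 and 2 in bexarotene tumors, with all groups overlapping. The homeobox genes beside the clusters, Evx1 and Evx2, and the caudal factor Cdx1, an upstream regulator of Hox genes, had 0 counts throughout. The caudal factors Cdx2 and Cdx4 were above the floor in at least 1 tumor. Summed over these 5 genes, of which 0 were tested, the level was 0.059 to 1.59 CPM in control tumors. It was 0 to 0.163 CPM in MSU-42011 and 0.037 to 0.969 CPM in bexarotene tumors.

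By their summed levels the partners and regulators of the Hox genes were abundant by comparison, and none passed an adjusted p of 0.05 in edgeR. Single genes among them could be scarce. Pbx4 was at 0.275 to 1.23 CPM, and Meis2 at 0 CPM in control replicate 3 and MSU-42011 replicate 1. Of 9 TALE cofactors 8 were tested, and their sum lay between 131 and 189 CPM in all tumors. At an unadjusted p under 0.05, 1 was higher in MSU-42011 tumors (against 1.14% of all genes) and 0 in bexarotene tumors (4.48%). That gene was Meis1, a cofactor that works with Hox proteins in blood progenitors, with 3.38, 0.57, 1.07 and 0.26 CPM in control and 4.40, 4.18, 4.01 and 5.83 CPM in MSU-42011 tumors, which lay above all control tumors (as for 1.16% of all genes). Its log2 fold change was 1.82 (SE 0.68, edgeR unadjusted p = 0.0202) for MSU-42011 and 1.06 (SE 0.67) for bexarotene, whose tumors overlapped the control tumors at 5.76, 1.86, 1.94 and 1.23 CPM.

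Of 27 Trithorax and Polycomb regulators, which keep Hox genes active or silent, all were tested and their sum varied only between 1377 and 1521 CPM. In MSU-42011 tumors 1 was higher at an unadjusted p under 0.05 (against 1.14% of all genes). This was the Trithorax methyltransferase Kmt2a (log2 fold change 0.49, SE 0.15). In the same tumors 1 was lower (against 0.851%), the Polycomb gene Cbx6 (-0.27, SE 0.11). In bexarotene tumors 0 were higher (against 4.48%) and 0 lower (1.96%). The median log2 fold changes of the list were 0.0011 and 0.044.

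Of the 6 RAR and RXR genes 4 were tested. At an unadjusted p under 0.05, 0 differed from control with MSU-42011 (against 1.99% of all genes) and 0 with bexarotene (6.44%). Rxra, the receptor gene named for the target of the compounds, had log2 fold changes of -0.08 (SE 0.22) for MSU-42011 and -0.28 (SE 0.23) for bexarotene. Rara was lower in MSU-42011 than in bexarotene tumors (log2 difference -0.61, SE 0.25, edgeR unadjusted p = 0.0317), as were 3.13% of all genes at p under 0.05. Rarb, itself a classical retinoic acid target, stayed at or below 0.85 CPM in every tumor, and Rxrg at or below 0.22 CPM.

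Of 10 retinoic acid response genes outside the clusters 6 were tested, with median log2 fold changes of -0.27 for MSU-42011 and 0.028 for bexarotene. At an unadjusted p under 0.05, 0 differed with MSU-42011 (against 1.99% of all genes) and 1 was higher with bexarotene (against 4.48%). This was Rarres2, which encodes the adipokine chemerin. It had 36.1 CPM in bexarotene replicate 1 and 0.80 to 3.10 CPM elsewhere. Cyp26a1, the retinoic acid hydroxylase that responds most directly to retinoic acid, was at 2.84 CPM in bexarotene replicate 1, 0.72 CPM in bexarotene replicate 2 and at most 0.18 CPM in the other 10 tumors.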

How the data were processed

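RNA of 12 tumors was extracted with an RNeasy kit, enriched for poly(A) RNA and sequenced by Novogene. STAR 2.6.1d and featureCounts 1.5.0-p3 are named in the submitters' processing notes, while the strand setting and the build are not given in the sources used here. The coordinates of 98.3% of genes with a matching identifier were those of GENCODE M21 on GRCm38. The authors deposited raw counts per gene, without normalization, and FPKM values, which they divided by library size and transcript length. Total counts were 16583413 to 25925027 per tumor. Groups came from the treatment label, with 4 mice each, and the deposited tables of the authors' own comparisons were not used.

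Counts were normalized with TMM and tested with edgeR 4.0.16 (quasi-likelihood F test, filterByExpr, 1 model of 3 groups, Benjamini-Hochberg adjustment over 15504 genes, threshold 0.05) in R 4.3.3. The biological coefficient of variation was 0.338. Single genes were compared by exact two-sided permutation of log2(CPM + 0.5). DESeq2 1.42.0, limma 3.58.1 on log2 FPKM, other filters and normalizations, the replicate number and each tumor left out were alternatives, and leaving out 2 tumors together was chosen after seeing the data. The script was tested on simulated data. Log2 ratios of a tumor to the others add 0.5 CPM.

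The Hox genes and all gene lists were chosen with earlier results of these data known. Values in every tumor are given for Hox genes with an unadjusted edgeR p under 0.05 in any test, for tested genes whose groups did not overlap, for the 2 highest of each cluster by median FPKM and for genes above the floor in 1 tumor. Of the other lists, up to 3 genes with the smallest p were named. All other genes with values, including the neighbours of these in the clusters and the receptors, were chosen after their values were seen. Replicate numbers came from the sample titles and did not pair the tumors. Values of 1 HoxA gene are not reported here, and it is counted only in the totals.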

Additional observations from a re-analysis of the deposited data

Results flagged for a closer look

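In 22 of 57 combinations of a named Hox gene or cluster sum with a diet group, the highest tumor lay apart from the other 3 by more of the group's range than Dixon's 95% limit for 4 samples, which chance passes in about 1 of 20 for normal values. Of the 22, 9 came from genes chosen for being above the floor in 1 tumor and 4 from cluster sums that contain the other genes, which leaves 9 of 36 for single genes. Among all 22, with the chosen genes and the cluster sums included, bexarotene replicate 1 was that tumor in 8, MSU-42011 replicate 2 in 5 and control replicate 1 in 3.

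In the bexarotene group the gap made up 0.904 of the range for Hoxa6 (1.03 CPM against at most 0.143), 0.862 for Hoxc6, 0.905 for Hoxc8, 0.896 for Hoxd8, 0.889 for summed HoxC (46.8 CPM against at most 5.77) and 0.943 for summed HoxD (8.19 CPM against at most 2.27), in each case through replicate 1. In the MSU-42011 group it was 0.985 for Hoxb4, 0.923 for Hoxb5 (4.30 CPM against at most 0.488) and 0.977 for summed HoxB (62.4 CPM against at most 4.56), through replicate 2. In the control group it was 0.854 for Hoxb5 (1.19 CPM against at most 0.284), 0.856 for Hoxc8 (1.48 CPM against at most 0.214) and 0.835 for summed HoxC, through replicate 1, and 0.904 for Hoxd9, through replicate 4 at 4 counts against 1. For Hoxa9, Hoxa10 and Hoxb1 it was 1.0 in every group, since a single tumor of each had reads. These 3 genes were named because only 1 tumor was above the floor, so their gaps follow from how they were chosen.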

How the results depend on the processing

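No Hox gene was called under any alternative (0 in each of the 4 tests), and the fold changes of Hoxb8 and Hoxc6 kept their sign in all, though those of Hoxb8 ranged from 0.43 to 1.82 for MSU-42011 and from 0.70 to 2.50 for bexarotene. With 0 or 10 counts as the floor in place of 3, 10 and 19 entries lay at it in every tumor instead of 15, and without each tumor in turn 15 to 17 did. At an unadjusted p under 0.05, 4 of 11 Hox genes passed for any difference (against 4.24% of all genes). With no filter on low counts 10 of 30 passed (4.92%), and with DESeq2 without Cook's filter 10 of 30 (4.04%). With limma on log2(FPKM + 1) it was 1 of 20 (2.56%), and with the replicate block 1 of 11 (2.39%). With that block, MSU-42011 against control gave 1 (2.1%) and bexarotene against control 4 (4.59%). MSU-42011 against bexarotene gave 1 (2.68%), which was Hoxa5, higher with MSU-42011. Same-numbered tumors correlated from -0.352 to 0.349 and were not always each other's closest match, so they share only a number. Without bexarotene replicate 1, 2 of 11 passed for any difference (against 2.46% of all genes). For bexarotene against control 2 passed (3.35%), Hoxb8 higher and Hoxa6 lower, and between the agonists 0 did (3.07%). Without MSU-42011 replicate 2, 1 of 12 passed for MSU-42011 against control (4.27%). Without control replicate 1, 5 of 12 passed for bexarotene against control (5.47%).

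Some log2 fold changes changed sign, and the cause was not tested. For MSU-42011 against control, Hoxc8 (-0.13) was 1.42 with the replicate block, 0.0094 with limma on log2(FPKM + 1) with and without a filter and 0.39 on log2(FPKM + 0.1), and Hoxd8 (-0.21) was 0.031 with the replicate block and 0.047 on log2(FPKM + 0.1). Without MSU-42011 replicate 2 and bexarotene replicate 1 together, Hoxa5 for MSU-42011 against control was -0.096, and MSU-42011 against bexarotene was -1.07 for Hoxb4 and 0.064 for Hoxb6. Leaving out each tumor in turn, MSU-42011 against control ranged from -0.13 to 1.02 for Hoxa5, -1.13 to 0.37 for Hoxa7, -0.57 to 1.94 for Hoxc8 and -0.50 to 0.36 for Hoxd8. Bexarotene against control ranged from -1.45 to 0.22 for Hoxa7. MSU-42011 against bexarotene ranged from -0.43 to 0.90 for Hoxa7 and -1.72 to 2.53 for Hoxb4.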
